A study of Mus musculus with 6 samples.

Results

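The interferon-stimulated and nucleic acid sensing genes comprised 34 mouse genes, chosen by symbol from a list ordered by role. All 34 were among the 26214 genes listed in the count files, and all 34 were among the 14709 genes that passed the filter on low counts. RNA-seq had been run on immortalized mouse brown preadipocytes that were induced to differentiate with insulin, T3, IBMX, dexamethasone and indomethacin, and then kept in insulin and T3. From day 7 of differentiation the cells were exposed for 16 h to 100 nM rotenone, an inhibitor of mitochondrial complex I, or to DMSO, its vehicle, as the only 2 groups. Each group was labelled with 3 replicates, but the 3 rotenone files held the same count for every gene (0 genes differed), so they differed by less than sampling noise and were counted as 1 library. The DMSO files did differ. Their raw counts were correlated at Pearson r = 0.9939 to 0.9992 across genes, and genes are not independent observations for such a correlation. Replicate 1 stood apart over all genes, with a chi-square per gene of 7.97 against replicate 2 and 7.22 against replicate 3, while replicates 2 and 3 differed by 4.78. No genotype was given, both groups came from the same immortalized cells, and no other complex I inhibitor was used. Every p-value below rests on the spread among 3 DMSO libraries, which may be technical. The test draws each gene's spread partly from the other genes, so a call does not follow the gene's own DMSO spread alone.

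The DMSO libraries held 29194179, 28209306 and 26085061 counts for replicates 1, 2 and 3, and the rotenone library 21611589. The adipocyte label was checked with marker genes. Fabp4, a fatty acid carrier of adipocytes, was at 4857 to 5583 CPM (counts scaled to library size) with DMSO and 5306 CPM with rotenone, and Ucp1, the brown fat uncoupling protein, was at 54.7 to 74.3 CPM and 18.5 CPM, while Dio2 was at 0 to 0.236 CPM in all libraries. The 34 genes held between 14 and 4837 counts each in the DMSO libraries and between 25 and 6285 in the rotenone library.

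As background, cells recognise foreign or misplaced RNA and DNA with sensors such as the RIG-I-like receptors, which signal through the mitochondrial adaptor MAVS and can switch on type I interferons. Secreted interferon binds its receptor and activates a complex that includes STAT2 and IRF9 and binds interferon-stimulated response elements in the promoters of effector genes. IRF1 acts on an overlapping set of targets, and gamma interferon acts through gamma-activated sites.

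Promoters were compared first, because the response element is the sequence feature that defines this response. RefSeq promoter windows (build GRCm38.p6), running from 250 bases before to 50 after a transcription start, were matched by symbol for 26 of the 34 genes. Dhx58, Zbp1, Usp18, Oas2, Mx2, Rtp4, Parp9 and Parp14 had no entry. The core of the response element, GAAA, any 2 bases and GAAA on either strand, was present in a window of 13 of the 26 (50%), against 3.99% of the 27025 genes in the table. The gamma-activated site, TTCNNNGAA on either strand, was present in 8 of the 26 (30.8%), against 9.55% of all genes. Overlapping matches were each counted, and a match is a string of letters, not a measured binding site. The 4 windows below belong to Isg15 and Oas1a, with neighbouring core matches, to Bst2, with the highest level per kilobase among the 34 genes, and to Irf1, which had the smallest adjusted p of the 34. Capitals mark the response element core in Isg15, Oas1a and Bst2, and the gamma-activated site in Irf1.
Isg15, chr4:156200769-156201068, minus strand: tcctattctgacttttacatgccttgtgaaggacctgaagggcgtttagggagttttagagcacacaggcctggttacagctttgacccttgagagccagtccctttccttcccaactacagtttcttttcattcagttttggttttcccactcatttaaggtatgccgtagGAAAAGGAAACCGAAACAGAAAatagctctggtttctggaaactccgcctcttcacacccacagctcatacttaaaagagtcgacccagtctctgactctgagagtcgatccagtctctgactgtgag
Oas1a, chr5:120907476-120907775, minus strand: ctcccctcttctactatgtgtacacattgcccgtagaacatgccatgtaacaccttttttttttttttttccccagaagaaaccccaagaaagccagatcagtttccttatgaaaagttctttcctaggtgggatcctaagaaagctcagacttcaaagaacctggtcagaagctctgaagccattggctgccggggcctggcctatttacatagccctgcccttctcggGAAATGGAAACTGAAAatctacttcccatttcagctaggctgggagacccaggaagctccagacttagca
Bst2, chr8:71537423-71537722, minus strand: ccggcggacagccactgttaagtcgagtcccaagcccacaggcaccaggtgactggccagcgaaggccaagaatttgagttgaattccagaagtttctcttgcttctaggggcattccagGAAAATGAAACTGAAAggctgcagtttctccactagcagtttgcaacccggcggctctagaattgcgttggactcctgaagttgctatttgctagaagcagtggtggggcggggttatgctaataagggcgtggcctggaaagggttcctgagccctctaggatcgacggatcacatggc
Irf1, chr11:53769764-53770063, plus strand: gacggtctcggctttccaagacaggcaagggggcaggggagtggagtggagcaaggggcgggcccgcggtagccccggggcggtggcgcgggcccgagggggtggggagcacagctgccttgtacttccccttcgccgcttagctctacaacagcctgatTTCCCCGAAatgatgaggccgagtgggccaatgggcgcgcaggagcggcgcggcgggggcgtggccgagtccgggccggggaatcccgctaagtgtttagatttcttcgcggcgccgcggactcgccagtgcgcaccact
In Isg15 the 3 overlapping cores began 78, 72 and 66 bases before the start. In Oas1a the 2 cores began 20 and 14 bases before it, and in Bst2 130 and 124 bases before it. Oas1a also held a gamma-activated site match, TTCAAAGAA, 98 bases before the start, left in lower case above. In Bst2 a gamma-activated site match, TTCCAGGAA, began 136 bases before the start and overlapped the first core. The Irf1 site, TTCCCCGAA, began 90 bases before the start, and neither of the 2 Irf1 windows in the table held a core match.

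The 34 genes were spread widely among the 3 DMSO libraries. Their median coefficient of variation (CV, the SD over the mean of CPM) was 30.2%, with quartiles of 14.6% and 37.6%, against a median of 7.08% over all 14709 genes tested. Counting error alone accounted for a median CV of 3.70% in the 34 genes. Among all genes tested at 1 CPM or more with DMSO, the median CV was 6.18%. The highest DMSO level was over 2-fold the lowest in 11 of the 34 genes (32.4%). This held for 9.36% of all genes tested and 1.82% of those at 1 CPM or more with DMSO. In CV, 25 of the 34 genes lay above the upper quartile of all genes.

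The spread had a direction. DMSO replicate 2 was the highest of the 3 DMSO libraries for 30 of the 34 genes (88.2%), against 33.0% of all genes tested. DMSO replicate 1 was the highest for the other 4, Irf1, Ifit1, Cmpk2 and Mx2, and DMSO replicate 3 for 0. The lowest library was DMSO replicate 1, which stood apart over all genes, for 22 of the 34 (64.7%, against 34.5% of all genes tested), and DMSO replicate 3 for 12 (35.3%, against 33.5%). Summed over the 34 genes, the level was 954 CPM in DMSO replicate 1, 1386 CPM in replicate 2 and 1033 CPM in replicate 3, against 1826 CPM with rotenone. These counts describe 3 libraries and carry no test.

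**Figure D1:**
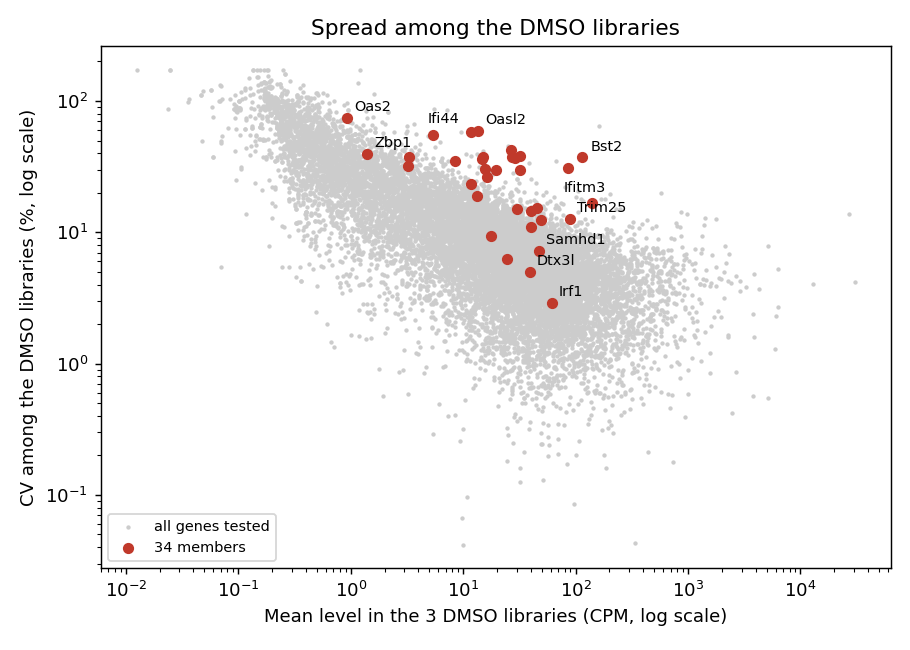
Mean level in the 3 DMSO libraries (CPM, log scale) against the CV among them (percent, log scale) for all genes tested (grey) and the 34 genes (red). At levels where most genes have a CV near the overall median of 7.08%, most of the 34 genes sit higher, with Irf1 at 2.88% and Dtx3l at 4.95% among the exceptions.

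The median width varied by role, in groups of 3 to 9 genes, and this was not tested. Oas2 (74.2%), Oasl2 (59.0%), Ifi44 (58.1%) and Oas1a (54.8%) had the largest CVs, and Irf1 (2.88%), Dtx3l (4.95%), Gbp2 (6.31%) and Samhd1 (7.15%) the smallest. By role, the median CV was 34.7% for the effectors acting on RNA and nucleotides, 31.7% for the GTPases and 30.3% for the membrane and secreted proteins. It was 26.1% for signalling, 23.3% for the sensors with Trim25, and 12.4% for Parp9, Parp14 and Dtx3l. The groups overlapped, with quartiles of 12.1% and 37.2% for signalling and 14.5% and 36.0% for the sensors. Of the 26 genes with a promoter window, the 13 with a response element core had a median CV of 30.8% and the 13 without one 15.4%. Replicate 2 was the highest DMSO library for 12 of the former and 11 of the latter. Their median log2 fold changes with rotenone were 0.38 and 0.29. The genes without a core match included Oasl2 and Ifi44. The 8 genes without a window, Oas2 among them, were left out of this split.

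With rotenone, 6 of the 34 genes rose (17.6%, against 27.6% of all genes tested) and 5 fell (14.7%, against 28.5%) in edgeR's quasi-likelihood test at a Benjamini-Hochberg adjusted p under 0.05. In all, 11 (32.4%) were called, against 56.1% of all genes tested. Zbp1, Irf1, Oas2, Mx2, Ifi35 and Ddx58 rose. Cmpk2, Trim25, Samhd1, Parp9 and Dtx3l fell. Calls did not follow the DMSO CV of the gene alone. Oas2 (CV 74.2%) and Mx2 (37.7%) were called, while Oasl2 (59.0%) and Bst2 (37.8%) were not. The median log2 fold change of the 34 genes was 0.46, against -0.04 over all genes tested. In bulk RNA, fewer cells of a type and less RNA per cell cannot be told apart.

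The rotenone level lay above all 3 DMSO libraries for 20 genes (58.8%, against 41.5% of all genes tested), below all 3 for 9 (26.5%, against 44.7%) and within their range for 5 (14.7%, against 13.8%). Of the 20 above, 6 were called and 14 were not. Over all genes tested, 41.5% lay above and 27.6% were called higher, so calls were fewer beside the genes above in the 34. The direction depended on which DMSO library was the reference for some genes. Against DMSO replicate 2 the rotenone library was higher for 21 of the 34 genes with a median log2 ratio of 0.16, against replicate 1 for 24 with 0.63, and against replicate 3 for 25 with 0.80. Over all genes tested those shares were 48.2%, 48.2% and 48.4% for replicates 1, 2 and 3.

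**Figure D2:**
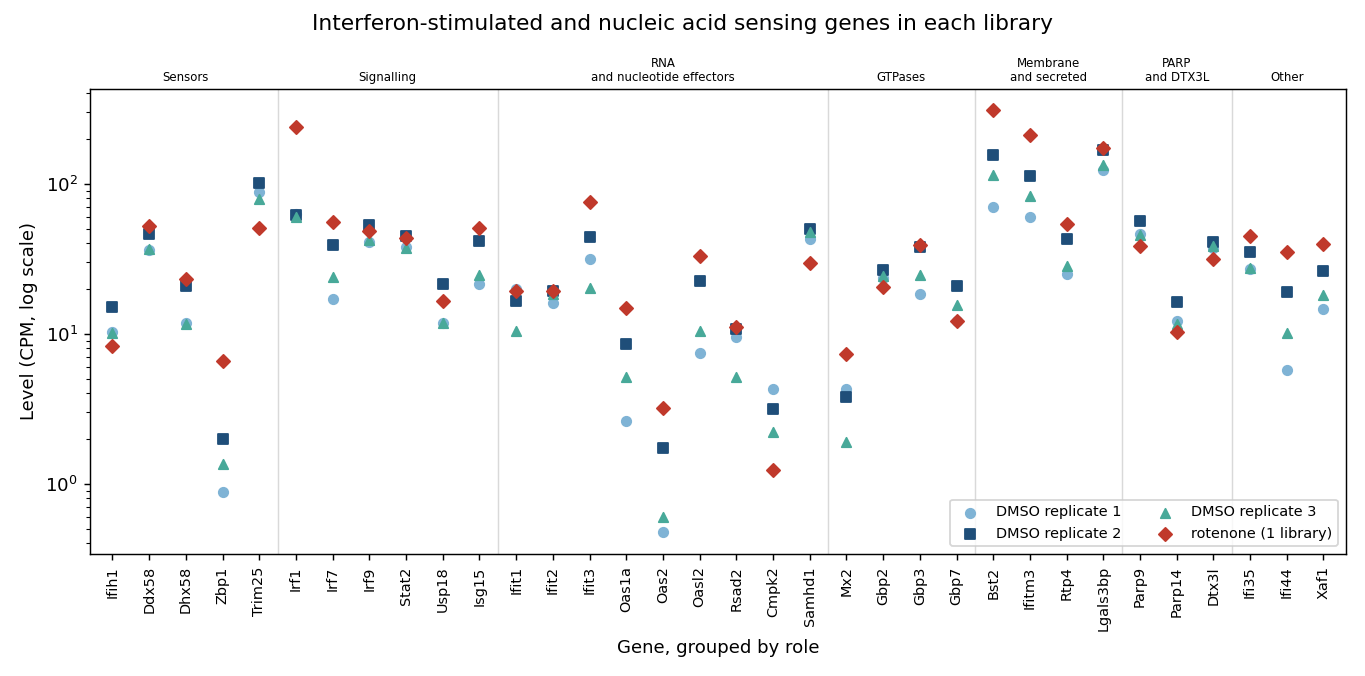
Level (CPM, log scale) of each of the 34 genes in the 3 DMSO libraries and the rotenone library, grouped by role. DMSO replicate 2 (dark squares) is the highest DMSO library for 30 genes, and the rotenone library (red diamonds) lies above all DMSO libraries for 20.

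Leaving out 1 DMSO library changed the number of calls, at the cost of a residual degree of freedom. Without DMSO replicate 1, 21 genes were called higher and 9 lower (background 28.8% and 28.9%). Without DMSO replicate 2, 19 were called higher and 3 lower (27.5% and 28.2%). Without DMSO replicate 3, 6 were called higher and 7 lower (27.3% and 28.4%). Dhx58, Irf7, Isg15, Ifit3, Oas1a, Oasl2, Gbp3, Ifitm3, Rtp4, Lgals3bp, Ifi44 and Xaf1 passed as higher both without replicate 1 and without replicate 2. Bst2, Ifit1 and Rsad2 passed as higher without replicate 1, and Usp18 without replicate 2. Ifih1 and Parp14 passed as lower without replicate 1 or without replicate 3, and Gbp2 and Gbp7 without replicate 1. Parp9 and Dtx3l lost their call without replicate 2, at log2 fold changes of -0.25 and -0.27. Zbp1 and Irf1 kept their call under all 17 alternatives tried.

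**Figure D3:**
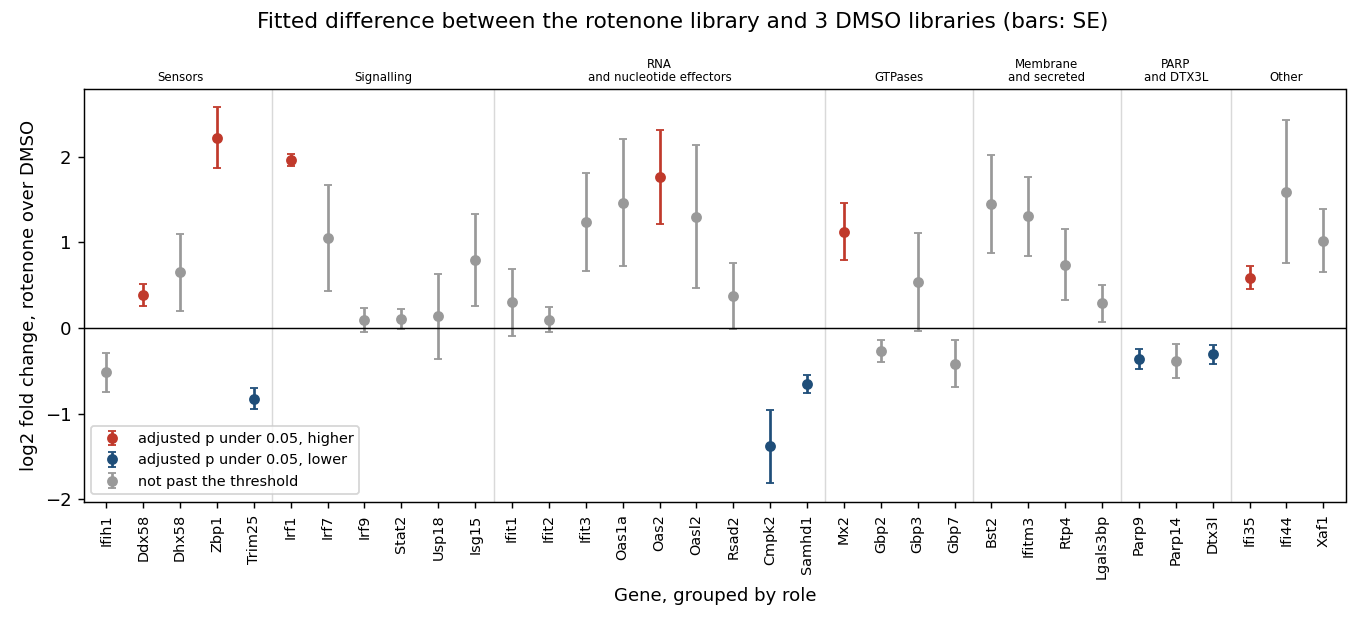
Fitted log2 fold change of the rotenone library over the 3 DMSO libraries (points, with SE bars) for each of the 34 genes, coloured by the call at adjusted p under 0.05. Genes with long bars, such as Oasl2 (1.30 ± 0.84) and Ifi44 (1.59 ± 0.83), were not called although their rotenone level lay above all DMSO libraries, and Irf1 (1.96 ± 0.07) had the shortest bar.

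The 5 genes grouped as sensors include Trim25, which encodes a ligase of the pathway. Of these 5, Zbp1, Ddx58 and Trim25 were called. For this and each role group below, the background over all genes tested was 56.1% called. The rotenone level lay above the DMSO range for 41.5% of all genes tested and below it for 44.7%. Groups this small carry no test. Zbp1 (chr2:173206612-173218923 on GRCm38) encodes a sensor of left-handed nucleic acids that can trigger necroptosis. Its level was 0.878, 1.97 and 1.35 CPM in DMSO replicates 1 to 3 and 6.55 CPM in the rotenone library. The single rotenone library lay above all DMSO libraries. The rise was 2.22 ± 0.35 (log2 fold change and SE, edgeR adjusted p = 2.76e-05) from 26 to 57 counts per DMSO library. Ddx58 encodes RIG-I, the sensor of RNA with a free triphosphate end. It was at 36.1, 46.4 and 36.9 CPM with DMSO and 52.0 CPM with rotenone, a rise of 0.38 ± 0.13 (edgeR adjusted p = 0.0168) in which replicate 2 came closest to the rotenone level. The call was lost with scaling by library size alone (edgeR adjusted p = 0.097). Trim25, a ubiquitin ligase that acts on RIG-I signalling, was at 88.4, 101 and 79.0 CPM with DMSO. At 50.6 CPM with rotenone it lay below every DMSO library, and it fell by 0.82 ± 0.12 (edgeR adjusted p = 0.000124).

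The other 2 sensors were not called. Ifih1, which encodes MDA5, the sensor of long double-stranded RNA, was at 10.3, 15.0 and 10.1 CPM with DMSO and 8.23 CPM with rotenone (-0.52 ± 0.23, edgeR adjusted p = 0.0602). Dhx58, which encodes the regulatory receptor LGP2, was at 11.8, 20.9 and 11.6 CPM with DMSO and 23.2 CPM with rotenone (0.65 ± 0.45, edgeR adjusted p = 0.308). Both had replicate 2 well above the other DMSO libraries. For Ifih1 the rotenone level lay below that range and for Dhx58 just above it. The annotation places Dhx58os on the opposite strand across Dhx58, and the sources used here do not give the strand setting of the counting. The same limit holds for Irf1, Irf7, Usp18, Oas2, Gbp2, Rtp4 and Ifi35, each with an annotated gene overlapping on the opposite strand. Irf9, Gbp7, Rtp4 and Parp14 overlap an annotated gene on their own strand.

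Among the signalling genes, Irf1 rose and the other 5 were not called. Irf1 (chr11:53770014-53778374 on GRCm38) encodes a transcription factor of interferon and inflammatory responses. Its level was 63.2, 61.6 and 59.7 CPM in DMSO replicates 1 to 3 and 239.8 CPM in the rotenone library. The DMSO libraries were nearly equal (61.5 ± 1.77 CPM, SD, n = 3), so the rise of 1.96 ± 0.07 had the smallest adjusted p of the 34 genes (edgeR adjusted p = 2.55e-14). The window printed above as Irf1 carries a gamma-activated site match and no core match.

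Irf7, the factor that amplifies type I interferon production, was at 17.2, 39.0 and 23.8 CPM with DMSO and 55.2 CPM with rotenone (1.05 ± 0.62, edgeR adjusted p = 0.292). Isg15, a ubiquitin-like modifier, was at 21.4, 41.5 and 24.7 CPM with DMSO and 50.5 CPM with rotenone (0.79 ± 0.54, edgeR adjusted p = 0.341). In both, rotenone lay above all DMSO libraries, but by less than replicate 2 lay above replicate 1. Usp18, which removes ISG15 and restrains the receptor, was at 11.8, 21.6 and 11.8 CPM with DMSO and 16.6 CPM with rotenone. Its rotenone level lay inside the DMSO range, at a log2 fold change of 0.14 ± 0.49. Irf9 and Stat2, which encode parts of the complex that binds response elements, were also inside it, at 48.5 CPM against 40.7 to 53.4 CPM and at 43.2 CPM against 37.2 to 45.1 CPM.

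**Figure D4:**
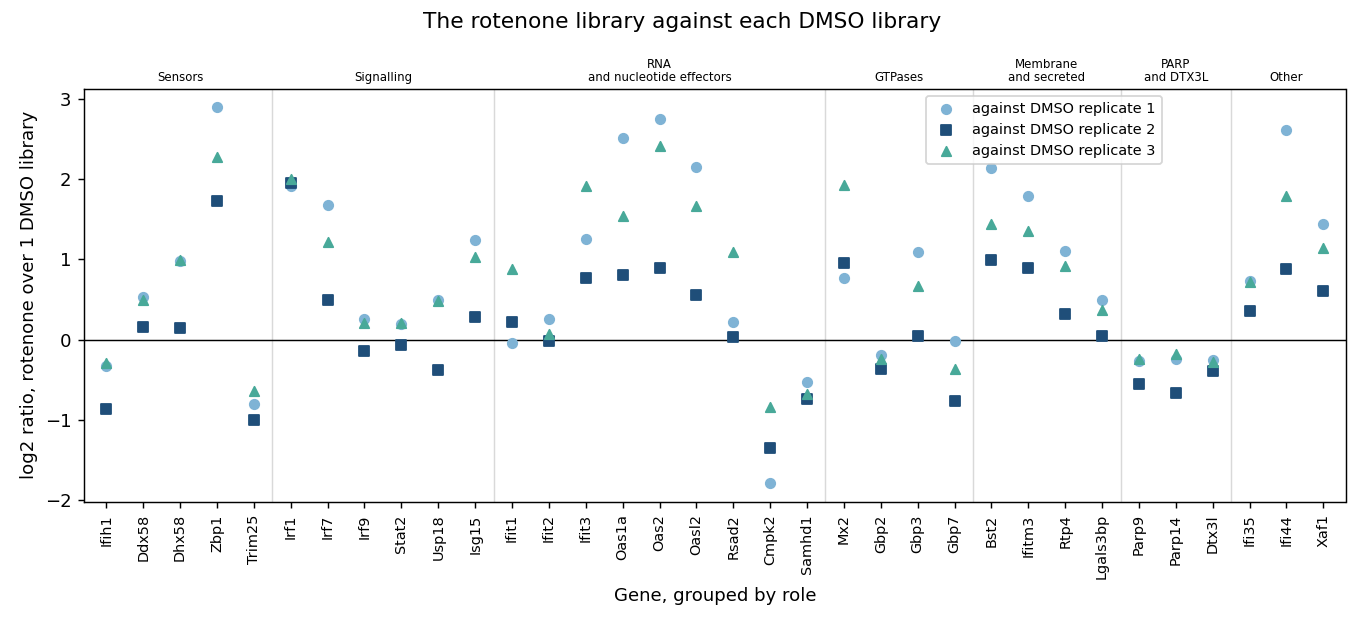
Log2 ratio of the rotenone library to each single DMSO library for the 34 genes (CPM, 1 point per DMSO library). The points against DMSO replicate 2 are the lowest of the 3 for 30 genes, and for Usp18, Irf9, Stat2 and, narrowly, Ifit2 they lie below 0 while the other points lie above it.

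Of the 9 effectors that act on RNA and nucleotides, Oas2 rose and Cmpk2 and Samhd1 fell. Oas2 encodes an oligoadenylate synthetase, which activates RNase L. Its counts were 14, 50 and 16 with DMSO and 65 with rotenone, or 0.473, 1.73, 0.599 and 3.20 CPM. Replicate 2 was over 2-fold above the other DMSO libraries, and rotenone lay above all (1.77 ± 0.55, edgeR adjusted p = 0.0114). Cmpk2, a mitochondrial nucleotide kinase, was at 4.25, 3.15 and 2.21 CPM with DMSO and 1.23 CPM with rotenone, from 25 counts. It fell by 1.38 ± 0.43 (edgeR adjusted p = 0.0102), and all DMSO libraries lay above the rotenone level. With limma-voom it was not called (adjusted p = 0.0644). Samhd1, which hydrolyses deoxynucleotides and limits reverse transcription, was at 43.1, 49.6 and 47.8 CPM with DMSO and 29.8 CPM with rotenone. It fell by 0.65 ± 0.11 (edgeR adjusted p = 4.85e-05), with a narrow DMSO range.

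The other 6 effectors were not called. Oas1a and Oasl2, of the oligoadenylate synthetase family, had wide DMSO ranges of 2.60 to 8.51 CPM and 7.46 to 22.4 CPM. With rotenone they were at 14.9 CPM (1.46 ± 0.74, edgeR adjusted p = 0.216) and 33.1 CPM (1.30 ± 0.84, edgeR adjusted p = 0.322), above all DMSO libraries. Ifit3, of the family that binds viral RNA ends, was at 31.6, 44.4 and 20.0 CPM with DMSO and 75.7 CPM with rotenone (1.24 ± 0.57, edgeR adjusted p = 0.212). Its relatives Ifit1 and Ifit2 were at 19.2 and 19.1 CPM with rotenone, inside DMSO ranges of 10.4 to 19.8 CPM and 16.0 to 19.3 CPM. Rsad2, which encodes viperin, was at 9.46, 10.8 and 5.17 CPM with DMSO and 11.0 CPM with rotenone, and it lies 12752 bases from Cmpk2 on chromosome 12, on the other strand. The Oas1a and Ifit3 values are uncertain as to gene, since 57.6% of the 50-base stretches of Oas1a transcripts also occur in Oas1g or Oas1b and 51.2% of those of Ifit3 in Ifit3b. Oas1g, at 0.709, 3.39 and 1.91 CPM with DMSO and 5.57 CPM with rotenone, and Ifit3b, at 10.9, 14.8, 6.33 and 16.6 CPM, had the same order of libraries as their named relatives.

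Among the GTPases, Mx2 rose. Mx2 encodes a dynamin-like antiviral GTPase and was at 4.29, 3.77 and 1.91 CPM with DMSO and 7.29 CPM with rotenone (1.13 ± 0.33, edgeR adjusted p = 0.00935). Here replicate 1 was the highest DMSO library, unlike in most of the 34 genes, and rotenone lay above all 3. The guanylate-binding proteins Gbp2, Gbp3 and Gbp7, which attack vacuoles of intracellular microbes, were not called and did not share a direction. Gbp3 was at 18.3, 38.0 and 24.6 CPM with DMSO and 39.1 CPM with rotenone, just above replicate 2. Gbp7, which neighbours it on chromosome 3, was at 12.2, 20.7 and 15.6 CPM and 12.1 CPM, just below replicate 1. Gbp2 was at 23.5, 26.5 and 24.3 CPM and 20.5 CPM, below its narrow DMSO range (-0.27 ± 0.13, edgeR adjusted p = 0.0782).

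The 4 membrane and secreted proteins all lay above the DMSO range with rotenone (41.5% of all genes tested did). By edgeR at adjusted p under 0.05, 0 of the 4 was called, against 56.1% of all genes tested. Bst2 (chr8:71534255-71537456 on GRCm38) encodes tetherin, which holds budding virions at the cell surface. It was at 70.4, 156 and 114 CPM with DMSO and 309.6 CPM with rotenone, near 2-fold replicate 2 (1.45 ± 0.58, edgeR adjusted p = 0.171). Ifitm3, a membrane protein that blocks virus fusion in endosomes, was at 60.3, 112 and 82.3 CPM with DMSO and 209.9 CPM with rotenone (1.30 ± 0.46, edgeR adjusted p = 0.141). Per kilobase of transcript these 2 had the highest levels of the 34 genes, with DMSO means of 143 and 125 CPM per kb and rotenone levels of 391 and 309.6 CPM per kb. Rtp4, a receptor chaperone, was at 25.0, 42.9 and 28.2 CPM with DMSO and 53.6 CPM with rotenone. Lgals3bp, a secreted glycoprotein that binds galectins, was at 123, 167 and 133 CPM and 172 CPM, just above replicate 2.

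Parp9 and Dtx3l fell and Parp14 was not called, although all 3 lay below the DMSO range with rotenone (44.7% of all genes tested did). PARP9 and DTX3L form a complex of an ADP-ribosyltransferase and a ubiquitin ligase, and PARP14 is a related transferase. Parp9 was at 46.2, 56.5 and 45.6 CPM with DMSO and 38.5 CPM with rotenone (-0.36 ± 0.12, edgeR adjusted p = 0.0157). Dtx3l was at 37.5, 41.1 and 38.2 CPM and 31.4 CPM (-0.31 ± 0.11, edgeR adjusted p = 0.0196). Its call was lost in 7 of the 17 alternatives, among them DESeq2 (adjusted p = 0.0738) and a correction for transcript length, which moved the log2 fold change to -0.10 (edgeR adjusted p = 0.457). Parp14 was at 12.1, 16.2 and 11.6 CPM and 10.2 CPM (-0.38 ± 0.20, edgeR adjusted p = 0.112). The first 2 genes overlap on opposite strands of chromosome 16, so without strand information reads in the overlap could count for either.

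Of the remaining 3 genes, Ifi35 rose. Ifi35, a partner of NMI released by damaged cells, was at 27.1, 35.1 and 27.4 CPM with DMSO and 44.9 CPM with rotenone (0.59 ± 0.13, edgeR adjusted p = 0.000909). Ifi44, an interferon-induced protein, was at 5.74, 19.0 and 10.1 CPM with DMSO and 35.1 CPM with rotenone (1.59 ± 0.83, edgeR adjusted p = 0.25). Xaf1, an antagonist of the apoptosis inhibitor XIAP, was at 14.7, 26.0 and 18.0 CPM and 39.7 CPM (1.02 ± 0.37, edgeR adjusted p = 0.102). In all 3 the order of libraries was replicate 1, replicate 3, replicate 2 and then rotenone.

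The 20 genes with a CV over 25%, a division made after the spread was seen, had a median log2 fold change of 1.03, with 16 (80%) above and 2 (10%) below the DMSO range and 4 (20%) called. All 2084 genes tested with a CV over 25% had a median of -0.26, with 31.1% above, 36.1% below and 21% called. The shares called were near each other, but the sets are not alike. Counting error alone gave a median CV of 24.5% in all genes as wide and 4.78% in these 20. The 14 with a lower CV had a median of -0.09, with 4 (28.6%) above, 7 (50%) below and 7 (50%) called. All genes tested with a CV that low had a median of -0.03, with 43.2% above, 46.1% below and 61.9% called. With the CV fixed at 20% for every gene, 12 of the 34 were called higher and 1 lower (background 9.57% and 14.0%), and Ddx58, Ifi35, Trim25, Samhd1, Parp9 and Dtx3l lost their calls. At 30% the counts were 6 and 0 (background 2.58% and 5.84%). At 30% the 0 genes called lower by edgeR stood beside 1 with an unadjusted p under 0.05, and DESeq2 with its own dispersions called 8 higher and 4 lower (background 24.9% and 24.2%). A non-robust prior in edgeR gave 17 higher and 5 lower (background 27.6% and 28.4%), and scaling by library size alone 5 and 8 (background 22.1% and 35.0%). A test against a 1.5-fold change left Zbp1 and Irf1 higher and Trim25 lower (2 and 1, background 8.18% and 11.8%). At an adjusted p under 0.01, 4 were higher and 2 lower (background 22.7% and 22.7%).

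The rest of the pathway was examined with further lists of genes, starting with the interferon ligands. Of the 21 ligand genes, 19 had 0 counts in every library, among them Ifnb1, the gamma interferon gene Ifng and every listed alpha interferon gene. A count of 0 allows up to 3 counts, or 0.101 to 0.148 CPM depending on the library. Ifnk had 1 count, in the rotenone library. Ifnz had 27, 6 and 9 counts with DMSO and 0 with rotenone, at least 3.28-fold lower when 3 counts are taken as the rotenone floor. Replicate 1 carried that bound, with 0.912 CPM against 0.208 and 0.337 CPM in replicates 2 and 3, and without it the bound was 1.84-fold. Over these lists together, 153 genes were listed, 121 were tested, 18 rose (14.9%) and 35 fell (28.9%), with a median log2 fold change of -0.06. Over all genes tested 27.6% rose and 28.5% fell, which is the background for each list that follows, with a median of -0.04.

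Of 14 receptor and JAK-STAT genes, 2 rose and 5 fell, with a median log2 fold change of -0.06. The type I receptor subunits went opposite ways. Ifnar1 was at 81.9, 71.1 and 80.6 CPM with DMSO and 63.6 CPM with rotenone (-0.29 ± 0.09, edgeR adjusted p = 0.00971), and Ifnar2 at 38.6, 38.1 and 38.4 CPM and 49.3 CPM (0.36, edgeR adjusted p = 0.00305). Among the genes with the largest changes, the phosphatase gene Ptpn6 fell by 1.21, the gamma receptor gene Ifngr1 by 0.81 and the kinase gene Tyk2 by 0.74 on the log2 scale, and the feedback inhibitor gene Socs3 rose by 0.70.

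Of 24 sensing adaptors, kinases and factors tested, 4 rose and 13 fell, with a median log2 fold change of -0.38. Mavs, the mitochondrial adaptor of the RIG-I-like receptors, was at 107, 98.1 and 102 CPM with DMSO and 67.6 CPM with rotenone (-0.60 ± 0.08, edgeR adjusted p = 3.9e-06). Zcchc3, a co-sensor of RNA and DNA, had the largest change, from 10.3, 8.03 and 10.8 CPM to 0.887 CPM (-3.44 ± 0.33, edgeR adjusted p = 4.08e-08). Rnf135, a ubiquitin ligase of RIG-I, fell by 2.46, the signalling ligase gene Traf6 by 1.29 and the endosomal RNA sensor gene Tlr3 by 1.25 on the log2 scale. Cgas, Sting1 and Irf3 were not called. Cgas, the cytosolic DNA sensor, was at 11.0, 12.1 and 13.7 CPM with DMSO and 15.1 CPM with rotenone, its partner Sting1 at 1.38, 3.29, 2.25 and 2.56 CPM, and Irf3 at 35.4, 36.9, 37.7 and 35.5 CPM.

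Of 15 genes that process nucleic acids or limit sensing, 3 rose and 5 fell, with a median of -0.10. Eif2ak2, which encodes the RNA-activated kinase PKR, was at 35.8, 38.2 and 34.5 CPM with DMSO and 18.9 CPM with rotenone (-0.94 ± 0.12, edgeR adjusted p = 1.95e-06). Dnase1l1 fell by 0.88 on the log2 scale. Pnpt1 and Supv3l1, subunits of the enzyme that degrades mitochondrial RNA, rose by 0.77 ± 0.10 (edgeR adjusted p = 1.52e-06) and 0.54 ± 0.09 (edgeR adjusted p = 6.89e-05). Adar, an RNA editor that limits sensing of self RNA, was not called at 23.9, 32.5 and 25.1 CPM with DMSO and 30.5 CPM with rotenone.

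Of 60 other interferon-stimulated genes tested, 9 rose and 9 fell, with a median of 0.14. Replicate 2 was the highest DMSO library for 45 of the 60 (75%) and the median CV was 17.0%, against 28.6% and 5.97% in the receptor list and 16.7% and 5.99% in the adaptor list. Cxcl10, a chemokine that attracts T cells, was at 3.82, 2.42 and 2.81 CPM with DMSO and 19.6 CPM with rotenone (2.70 ± 0.22, edgeR adjusted p = 4.07e-09). Here replicate 2 was the lowest DMSO library. Ifi203 and the chemokine gene Ccl5 rose by 1.26 and 1.24, and Oas1c fell by 1.63 on the log2 scale. Of 12 interferon gamma GTPases tested, 1 rose and 3 fell, with a median of -0.28. Irgm2 fell by 1.71, Gbp11 by 1.09 and Gvin1 by 0.67, and Ifi47 rose by 0.69.

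**Figure D5:**
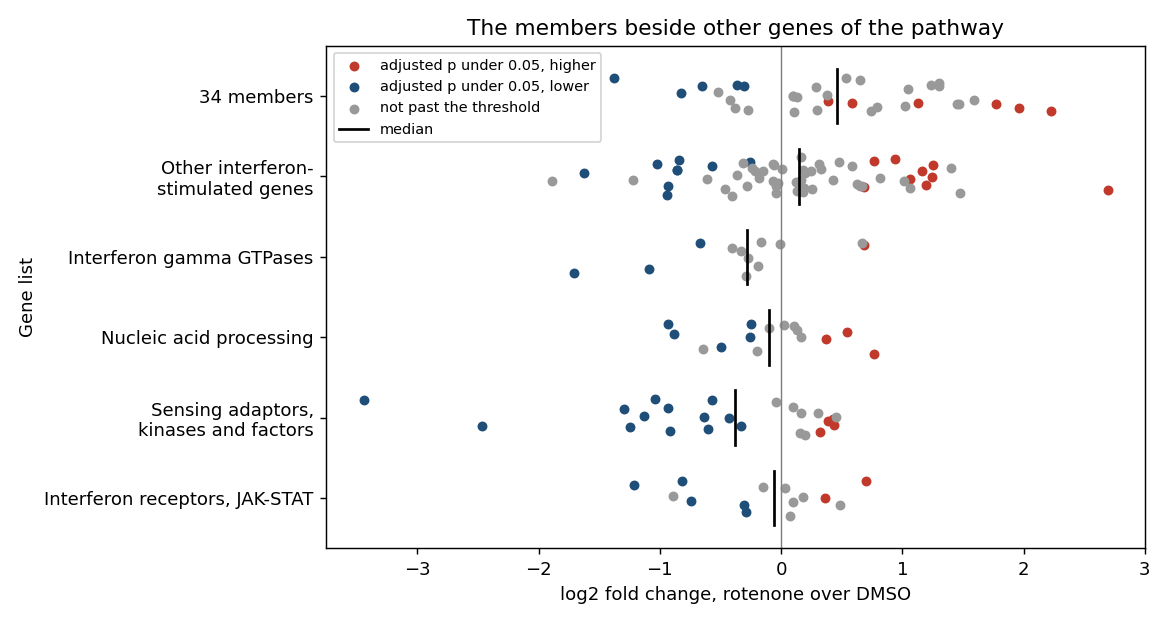
Fitted log2 fold change, rotenone over DMSO, of each tested gene in 5 other pathway lists and of the 34 genes (1 point per gene, coloured by call; vertical offsets are only for legibility; black bars, medians). The median of the 34 genes is 0.46, and those of the other lists run from -0.38 to 0.14.

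Markers of other cell types were read in the same libraries. Of 15 leukocyte markers, 8 were at 0 counts in every library, among them Ptprc, Adgre1, Itgax, Siglech, Cd3e, Ms4a1 and Tyrobp, and the summed level was 3.41 to 4.23 CPM with DMSO and 15.9 CPM with rotenone. Of that sum, Cd68, a lysosomal membrane protein also made outside leukocytes, made up 2.23 to 3.43 CPM and 15.5 CPM, and Csf1r, Lyz2, Itgam, Nkg7, Cd79a and Fcer1g were each at 0.507 CPM or less in every library. Of 7 endothelial markers, Cldn5 and Emcn were at 0 in every library, Cdh5, Kdr, Tek and Pecam1 were each at 0.45 CPM or less, Egfl7 rose, and the sum was 5.10 to 5.28 CPM with DMSO and 8.38 CPM with rotenone. Of 10 preadipocyte and fibroblast markers, 9 were tested, 6 rose (Pdgfrb, Dlk1, Thy1, Acta2, Col1a1 and Col3a1) and 1 fell (Pdgfra), Ly6a and Cd34 were not called and Dpp4 was too low to test. Their sum was 1329, 1488 and 1373 CPM in DMSO replicates 1 to 3 and 3720 CPM with rotenone. Of 12 brown adipocyte markers, 11 were tested, 1 rose (Cox8b) and 7 fell (Adipoq, Plin1, Ucp1, Pparg, Cebpa, Lipe and Prdm16), and Fabp4, Cidea and Ppargc1a were not called. Their sums were 10664, 9782 and 9578 CPM with DMSO and 8332 CPM with rotenone. The fibroblast sum was highest in replicate 2 among the DMSO libraries and higher still with rotenone, and its part in the levels of the 34 genes was not tested.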

How the data were processed

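Total RNA was sequenced by Illumina RNA-seq in 6 samples, 3 labelled DMSO and 3 labelled rotenone, per the labels. The authors deposited 1 file of raw counts per gene for each sample. TopHat2 and mm10 are named, per the submitters' processing notes. The counting program, its annotation, its strand setting and its handling of reads with several matches were not given in the sources used here. No paper was used.

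The 3 identical rotenone files entered once. Counts were fitted in R 4.3.3 with edgeR 4.0.16 (TMM scaling, default filter on low counts, robust quasi-likelihood test), with Benjamini-Hochberg adjustment over 14709 genes and a threshold of 0.05. With 2 residual degrees of freedom, the spread came from the DMSO libraries (common coefficient of variation 6.90%), which assumes that rotenone libraries vary like them. The fit moved the spread of a gene toward that of the other genes. Its robust setting did so less for genes whose spread stood out, and the non-robust prior has no such exception. CPM values use the TMM-scaled library sizes. Counting intervals and floors (3 counts) cover counting error only. Per-kilobase levels, positions and shared 50-base stretches use GENCODE M21 on GRCm38, and promoters use RefSeq GRCm38.p6.

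The 34 genes and all lists were chosen with earlier results of these data known, so lists carry counts and medians without a test. All 34 genes are named, as are, from each pathway list, the up to 4 called genes with the largest change and a set of genes fixed whatever their values (Ifnb1, Ifnar1, Ifnar2, Irf3, Mavs, Sting1, Cgas, Adar and Eif2ak2), and the marker genes. Some items named by this rule are not reported here. The 17 alternatives were other scalings, filters, dispersions, thresholds and tools (DESeq2 1.42.0, limma 3.58.1 with voom), a length correction, leaving out the ribosomal gene Rn45s and leaving out each DMSO library. The fit was tested on simulated counts that gave every gene the same narrow spread. That test therefore does not cover genes as widely spread among the DMSO libraries as most of the 34.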

Additional observations from a re-analysis of the deposited data

How the results depend on the processing

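No paired analysis was possible because the 3 rotenone files are identical and enter as 1 library, so the groups share fewer than 2 replicate numbers. Of the 34 genes, 6 were called higher and 5 lower, and the background shares at each setting are given in the Results. The higher calls numbered 17 with a non-robust prior, 12 with a fixed coefficient of variation of 20% and 2 in a test against 1.5-fold, and 6 to 21 with each DMSO library left out in turn. The lower calls numbered 8 with library-size scaling, 1 with a fixed coefficient of variation of 20%, 0 with 30% (edgeR; 1 gene had an unadjusted p under 0.05, and DESeq2 called 4), 1 in the test against 1.5-fold and 2 at an adjusted p under 0.01, and 3 to 9 with a DMSO library left out. Of the 121 other pathway genes tested, 18 were called higher and 35 lower (background 27.6% and 28.5%). The higher calls numbered 10 with a coefficient of variation of 20% (background 9.57%), 3 with 30% (2.58%) and 4 against 1.5-fold (8.18%). With a DMSO library left out they numbered 16 to 32 (27.3% to 28.8%). The lower calls numbered 17, 4 and 17 at the same first 3 settings (background 14.0%, 5.84% and 11.8%). With a library left out they numbered 33 to 36 (28.2% to 28.9%).

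Library-size scaling moved the all-gene median (log2 fold change) from -0.04 to -0.16 and turned Irf9 (-0.0249), Stat2 (-0.0142) and Ifit2 (-0.0215), all uncalled. Usp18, uncalled at 0.14, ran from -0.00997 to 0.49 with a DMSO library left out. Over 577 gene values under the alternatives, 470 kept direction and side of the threshold, 33 lost the call, 69 gained one and 5 turned; the causes were not tested. The median log2 fold change of the 34 genes ran from 0.34 with library-size scaling to 0.66 without DMSO replicate 2, and their median DMSO coefficient of variation from 29.8% to 30.2% over scalings and a 1 CPM minimum. Calls on genes near 1 CPM, such as Oas2 and Zbp1, rest on few counts, and the single rotenone library has no replicate.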

Other observations

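Neighbouring or related genes kept different ratios in the rotenone library. These pairs were chosen after their values were seen and carry no test. Cmpk2 and Rsad2, which are transcribed away from each other on chromosome 12, had a Cmpk2 to Rsad2 ratio of CPM of 0.45, 0.292 and 0.428 in DMSO replicates 1 to 3 and 0.112 with rotenone. The Gbp3 to Gbp7 ratio was 1.5, 1.83 and 1.57 with DMSO and 3.23 with rotenone. The Ifit3 to Ifit2 ratio was 1.97, 2.31 and 1.10 with DMSO and 3.96 with rotenone, where Ifit3 shares sequence with Ifit3b. In these 3 pairs the rotenone ratio lay outside the DMSO range. The Parp9 to Dtx3l ratio was 1.23, 1.37 and 1.20 with DMSO and 1.22 with rotenone, inside that range. A ratio between 2 genes in a library does not depend on how the libraries were scaled.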
